A study of Homo sapiens with 6 samples.

Results

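The BCL2 family decides whether a cell under stress permeabilises its outer mitochondrial membrane and enters apoptosis. Here 10 of its genes were followed through every probe set whose annotation names 1 of them and no other gene. These are 10 of 19775 genes with such a probe set. They had 34 of the 54675 probe sets on the array. Of these, 27, covering all 10 genes, passed a brightness filter at the array median and were tested. That median was log2 2.63 to 2.66, so some dim probe sets passed. A probe set is a group of short probes for 1 stretch of a transcript, so a gene with several probe sets has several readings.

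The cells were IMR32, an established neuroblastoma line of human origin in which MYCN is amplified. Teriflunomide was given at 118 µM and the control was DMSO at 0.1%, both for 24 h, with 3 arrays for each that the labels call biological replicates. Teriflunomide inhibits dihydroorotate dehydrogenase (DHODH), a mitochondrial enzyme of pyrimidine synthesis. Neither the DMSO content of the teriflunomide wells nor separate cultures for the replicates were stated, so p-values speak only to the spread among these 6 arrays, which could be technical. Both groups are the same cell line, and no other line or dose was included.

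Proteins of the family share short BCL2 homology (BH) regions and fall into 3 roles. BCL2, BCL2L1 (BCL-XL), BCL2L2 (BCL-W) and MCL1 are anti-apoptotic and hold their relatives in check. BCL2L11 (BIM), BMF, HRK (harakiri) and PMAIP1 (NOXA) are BH3-only proteins, which carry the stress signal by binding the anti-apoptotic proteins. BAX and BAK1 are the effectors that form pores in the outer membrane once released. Much of this control acts on proteins, which arrays do not measure. HRK is known mainly from neurons, where it is induced on withdrawal of growth factors.

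The stretches of genome just before the start sites of these genes were searched for short motifs of stress and growth factors. RefSeq promoter windows of build GRCh38.p14 were matched by symbol to 8 of the 10 genes, with 10 windows in all, and the 250 bases before each start were read. The motifs were TGATGNAA (the core of the C/EBP-ATF element that CHOP and ATF4 bind), GTAAACA (a FOXO element), TGACGTCA (a cyclic AMP response element), CACGTG (an E-box, bound by MYC proteins) and TGACTCA (an AP-1 element), each on both strands. None of these letter strings contains another. The windows of the 3 genes that held a match are printed 5′ to 3′ on the gene's strand, with the matches in capitals.
HRK (chr12:116881442-116881691, minus strand): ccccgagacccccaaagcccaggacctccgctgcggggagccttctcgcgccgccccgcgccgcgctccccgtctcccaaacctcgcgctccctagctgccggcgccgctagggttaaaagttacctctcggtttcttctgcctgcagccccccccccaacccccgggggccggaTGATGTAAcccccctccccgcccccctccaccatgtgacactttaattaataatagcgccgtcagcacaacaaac
BCL2L11 (chr2:111120664-111120913, plus strand): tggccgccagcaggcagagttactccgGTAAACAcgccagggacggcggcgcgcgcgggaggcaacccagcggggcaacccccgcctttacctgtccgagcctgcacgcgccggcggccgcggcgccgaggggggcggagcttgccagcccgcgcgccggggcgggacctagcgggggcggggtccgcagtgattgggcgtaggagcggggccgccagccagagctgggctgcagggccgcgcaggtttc
BAX (chr19:48954625-48954874, plus strand): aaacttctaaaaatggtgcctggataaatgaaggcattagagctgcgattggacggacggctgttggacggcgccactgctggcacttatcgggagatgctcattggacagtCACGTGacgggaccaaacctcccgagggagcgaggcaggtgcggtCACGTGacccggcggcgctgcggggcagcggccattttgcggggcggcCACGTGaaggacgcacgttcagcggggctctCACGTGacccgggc
The HRK match, TGATGTAA, lay 75 to 68 bases before the start. TGATGNAA occurred in 3.14% of all 35116 windows of this length. The BCL2L11 match, GTAAACA, lay 223 to 217 bases before the start, and this string occurred in 2.98% of windows. BAX held CACGTG at 4 places, the first 138 and the last 14 bases before the start, and 6.34% of windows held it at least once. TGACGTCA, in 1.65% of all windows, and TGACTCA, in 4.2%, matched in 0 of the 10. A match describes the letters and is not evidence that a factor bound there in these cells.

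After teriflunomide the BH3-only genes HRK and BMF rose on every probe set tested and PMAIP1 rose slightly, while BCL2 fell on its brightest probe set and BCL2L2 rose. HRK went up by 1.56 to 3.14 on the log2 scale over its 4 tested probe sets, and BMF by 1.38. MCL1 and BCL2L1 fell on some probe sets and not on others, and BCL2L11 moved both ways. BAX and BAK1 did not pass. By limma with Benjamini-Hochberg adjustment over 22735 probe sets, 11 of the 27 member probe sets were higher and 5 lower at an adjusted p under 0.05, against a background of 25.5% higher and 26.8% lower over all tested probe sets. Called in either direction were 16 of the 27, or 59.3%, close to the 52.3% of the background, so a call alone does not set these genes apart. Of the 27, 9 were called with a change of at least 2-fold, where 10.3% of all tested probe sets were called at that size. Among the 9 were all 4 tested HRK probe sets, and 225606_at and 1558143_a_at of BCL2L11, which moved in opposite directions. Several of the 9 thus read the same gene. The members were also chosen with earlier results of these data known, so this contrast is only a description. The median log2 fold change of the 27 was 0.22, and that of all tested probe sets was -3.33e-10. In bulk RNA, fewer cells of a type and less RNA per cell cannot be told apart. The groups did not overlap on 18 of the 27, beside 62.3% of all tested probe sets.

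**Figure D1:**
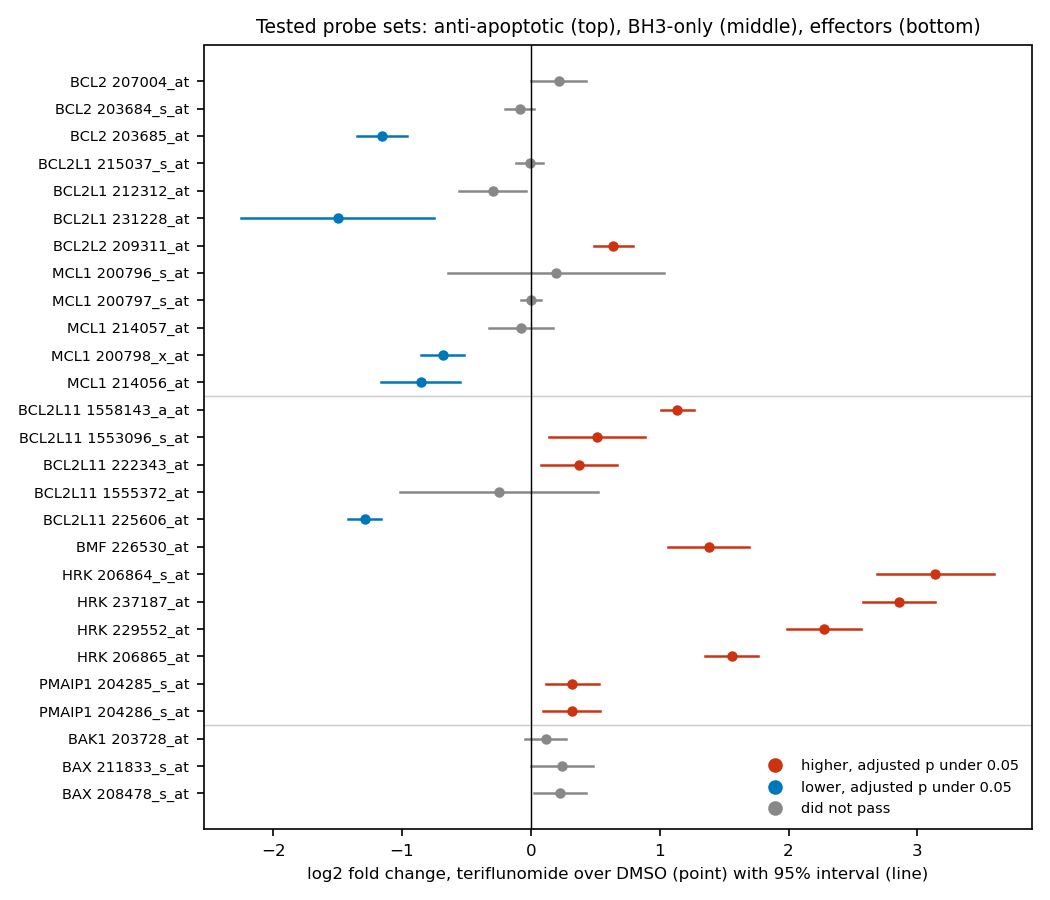
Log2 fold change of the 27 tested probe sets, teriflunomide over DMSO, on the horizontal axis, with limma's 95% interval as a line and 1 probe set per row; colour gives the call. The 4 HRK probe sets lie furthest to the right, between 1.56 and 3.14, BCL2L11 has called probe sets on both sides of 0, and all 3 effector probe sets are grey.

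Among the BH3-only genes, 10 of 12 tested probe sets were higher, 1 was lower and 1 did not pass. Over all tested probe sets 25.5% were higher and 26.8% lower. The median change of the 12 was 0.83 (log2). Several of the 12 read the same gene. With the brightest probe set of each gene, 3 of the 4 genes were higher and 1, BCL2L11, was lower. Over all genes tested this way, 29.7% were higher and 28.9% lower. Counted in the same way, 4 of the 10 members were higher and 2 lower. HRK, which binds BCL2 and BCL-XL, was the member with the largest change. On its brightest probe set, 206864_s_at, the DMSO arrays read 5.49, 5.67 and 6.09 and the teriflunomide arrays 8.84, 8.74 and 9.09 (log2 intensity). The lowest teriflunomide array stood far above the highest DMSO array. The means were 5.75 ± 0.31 and 8.89 ± 0.18 (SD, n = 3 per group), a log2 fold change of 3.14 (SE 0.18, limma adjusted p = 0.000142), or 8.82-fold.

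The other HRK probe sets moved the same way without overlap between the groups. Probe set 237187_at read 4.44, 4.50 and 4.70 in DMSO and 7.24, 7.38 and 7.58 with teriflunomide, a change of 2.85 (SE 0.11). Probe set 229552_at read 5.06, 5.31 and 5.42 against 7.61, 7.40 and 7.61, a change of 2.28 (SE 0.11). Both stood more than 2 log2 units higher on the lowest teriflunomide array than on the mean of the DMSO arrays. The dimmer 206865_at read 4.03, 3.93 and 3.96 in DMSO and 5.40, 5.50 and 5.68 with teriflunomide, a change of 1.56 (SE 0.08). With values under log2 5 raised to 5, a setting that removes differences among dim readings, it stood at 0.53 and the other 3 between 2.28 and 3.14. All 4 calls held under that setting. The remaining HRK probe set, 206863_x_at, read 2.18, the minimum of every array, in DMSO and teriflunomide alike and was not tested. HRK levels from different probe sets are not comparable with each other, since each has its own probes.

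BMF, a BH3-only protein that binds dynein light chains and anti-apoptotic relatives, had 1 probe set. It read 3.96, 4.08 and 4.14 in DMSO and 5.69, 5.28 and 5.35 with teriflunomide. Every teriflunomide array was above every DMSO array, but the DMSO readings were dim. BMF rose 2.60-fold, by 1.38 log2 units (SE 0.12, limma adjusted p = 0.000523). With values under log2 5 raised to 5 it was 0.44, still called.

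PMAIP1, whose product NOXA neutralises MCL1, was bright in both groups. Probe set 204285_s_at read 12.49, 12.64 and 12.72 in DMSO and 12.96, 12.83 and 13.03 with teriflunomide. Probe set 204286_s_at read 11.53, 11.78 and 11.69 against 11.90, 11.95 and 12.11. Both sets of arrays were separate between the groups, by small margins. The changes were 0.32 (SE 0.08, limma adjusted p = 0.0212) and 0.32 (SE 0.09, limma adjusted p = 0.0286), each a 1.25-fold rise. Leaving out 1 array ended the first call in 3 of 6 cases (DMSO replicate 2 at 0.33, teriflunomide replicate 1 at 0.31 and teriflunomide replicate 3 at 0.28) and the second in 4 of 6 (DMSO replicate 1 at 0.25, DMSO replicate 3 at 0.33, teriflunomide replicate 2 at 0.33 and teriflunomide replicate 3 at 0.26). Over all settings tried the adjusted p ran from 0.00523 to 0.0680 for the first and from 0.00748 to 0.0724 for the second.

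BCL2L11 encodes BIM, which binds all the anti-apoptotic proteins and is made as several splice forms. Its brightest probe set, 225606_at, read 8.83, 8.90 and 8.96 in DMSO and 7.58, 7.68 and 7.57 with teriflunomide. That is a log2 fold change of -1.29 (SE 0.05, limma adjusted p = 5.74e-05), or 2.44-fold lower. Probe set 1558143_a_at read 6.75, 6.88 and 6.72 in DMSO and 7.91, 7.93 and 7.92 with teriflunomide, a change of 1.14 (SE 0.05, limma adjusted p = 7.20e-05), or 2.20-fold higher. On both the groups stood apart by more than 1 log2 unit, in opposite directions. The value of 1558143_a_at minus that of 225606_at on the same array had a mean of -2.12 ± 0.11 (SD, n = 3) on the DMSO arrays and 0.31 ± 0.05 (SD, n = 3) on the teriflunomide arrays, in log2 units. The shift of 2.43 is a description: the pair was taken because its probe sets were called in opposite directions, which fixes the outcome of a test on their difference.

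Another BCL2L11 probe set, 1553096_s_at, read 5.81, 5.58 and 5.83 in DMSO and 6.31, 5.97 and 6.48 with teriflunomide, a change of 0.51 (SE 0.15, limma adjusted p = 0.0334). Its call was lost when any array but teriflunomide replicate 2 was left out (0.55, 0.44 and 0.56 without DMSO replicates 1, 2 and 3, and 0.49 and 0.40 without teriflunomide replicates 1 and 3), and over all settings its adjusted p ran from 0.0100 to 0.0993. The dim 222343_at rose by 0.37 from a mean of 2.51 with overlapping groups, a call that was lost without DMSO replicate 1 (0.32), DMSO replicate 3 (0.33), teriflunomide replicate 1 (0.34) or teriflunomide replicate 3 (0.32). All its values lay between 2.41 and 3.00, and with values under log2 5 raised to 5 no change was left in it. Probe set 1555372_at did not pass (-0.25, 95% interval -1.02 to 0.52). Of 6081 genes with 2 or more tested probe sets, 8.57% were called in both directions; among the members it was 1 of 7. Which exons or ends of the transcript each probe set reads was not determined here.

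**Figure D2:**
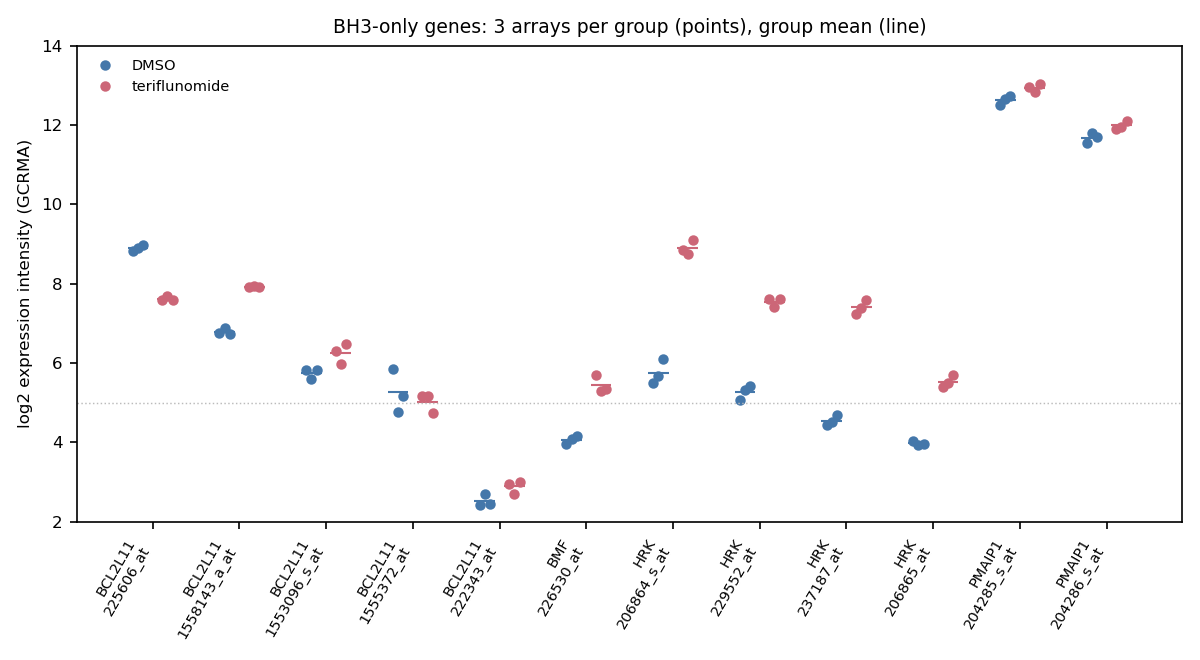
Log2 expression intensity (vertical axis) of the 12 tested probe sets of BCL2L11, BMF, HRK and PMAIP1, with 1 point per array, blue for DMSO and red for teriflunomide, and a line at each group mean of 3 arrays. The dotted line marks log2 5. The HRK arrays separate clearly on all 4 probe sets, and the 225606_at and 1558143_a_at readings of BCL2L11 move in opposite directions.

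Of the 12 tested probe sets of the anti-apoptotic genes, 1 was higher, 4 were lower and 7 did not pass. The shares over all tested probe sets were 25.5% higher and 26.8% lower. The median change of the 12 was -0.08 (log2). BCL2, the founding member, fell on its brightest probe set, 203685_at, from 8.91, 9.16 and 9.05 in DMSO to 7.91, 7.80 and 7.95 with teriflunomide. The groups were apart by nearly 1 log2 unit at their closest. BCL2 was 2.22-fold lower here, a change of -1.15 log2 units (SE 0.08, limma adjusted p = 0.000212). Another BCL2 probe set, 207004_at, read 5.68, 5.85 and 5.55 in DMSO and 5.85, 5.91 and 5.96 with teriflunomide. It pointed the other way and did not pass (0.22, 95% interval 0.004 to 0.427, limma adjusted p = 0.0808), although it passed without DMSO replicate 2 (0.29). Its adjusted p ran from 0.0198 to 0.271 over the settings tried. The interval of each probe set is not adjusted for the number of probe sets, which is why it can exclude 0 while the adjusted p misses the threshold. The dim 203684_s_at, with means of 2.94 and 2.85, did not pass. The mean over the 3 tested probe sets changed by -0.34 and was called.

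BCL2L2, which encodes the BCL-2 relative BCL-W, was the anti-apoptotic member that rose. Probe set 209311_at read 9.23, 9.08 and 9.19 in DMSO and 9.72, 9.84 and 9.86 with teriflunomide. The groups did not overlap, and the change was 0.64 (SE 0.06, limma adjusted p = 0.000614), or 1.56-fold. A bright probe set that the annotation assigns to BCL2L2, PABPN1 and their read-through transcript together was not counted; it read 13.53, 13.50 and 13.53 in DMSO and 13.54, 13.55 and 13.55 with teriflunomide.

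MCL1, a short-lived protein that binds NOXA and BIM, gave readings that differed between probe sets. Its brightest, 200797_s_at, read 13.08, 13.06 and 13.09 in DMSO and 13.10, 13.08 and 13.05 with teriflunomide. These values lay on top of each other, and the 95% interval of the change was -0.08 to 0.08. Probe set 200798_x_at read 10.70, 10.57 and 10.57 in DMSO and 10.01, 9.83 and 9.94 with teriflunomide, a change of -0.68 (SE 0.07, limma adjusted p = 0.000653). Probe set 214056_at read 6.61, 6.70 and 6.56 against 5.51, 5.95 and 5.84, a change of -0.86 (SE 0.12, limma adjusted p = 0.00270). On these the groups stood apart. The _x suffix of 200798_x_at marks probes that may also match other sequences. The remaining 2 tested probe sets, 214057_at (-0.08) and the dim 200796_s_at (0.20), did not pass. As the mean of its 5 tested probe sets MCL1 changed by -0.28 and was called, while the brightest alone gave 0.00.

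BCL2L1 gives rise to BCL-XL and, by splicing, to a short pro-apoptotic form. Probe set 231228_at fell from 6.21, 5.27 and 6.31 in DMSO to 4.53, 4.28 and 4.49 with teriflunomide. The DMSO arrays were spread, with replicate 2 about 1 log2 unit below the others, yet it still lay above every teriflunomide array. The change was -1.50 log2 units (SE 0.30, limma adjusted p = 0.00893), or -1.83 without DMSO replicate 2 and -0.93 with values under log2 5 raised to 5. The brighter 212312_at read 7.31, 7.10 and 7.42 against 6.97, 7.10 and 6.88 and did not pass (-0.30, 95% interval -0.56 to -0.03, limma adjusted p = 0.0604). Its adjusted p ran from 0.0220 to 0.159 over the settings, and it passed in 6 of 15 alternatives, among them without DMSO replicate 2 (-0.39). The dim 215037_s_at had means of 4.05 and 4.04. The mean over the 3 tested probe sets changed by -0.60 and was called.

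**Figure D3:**
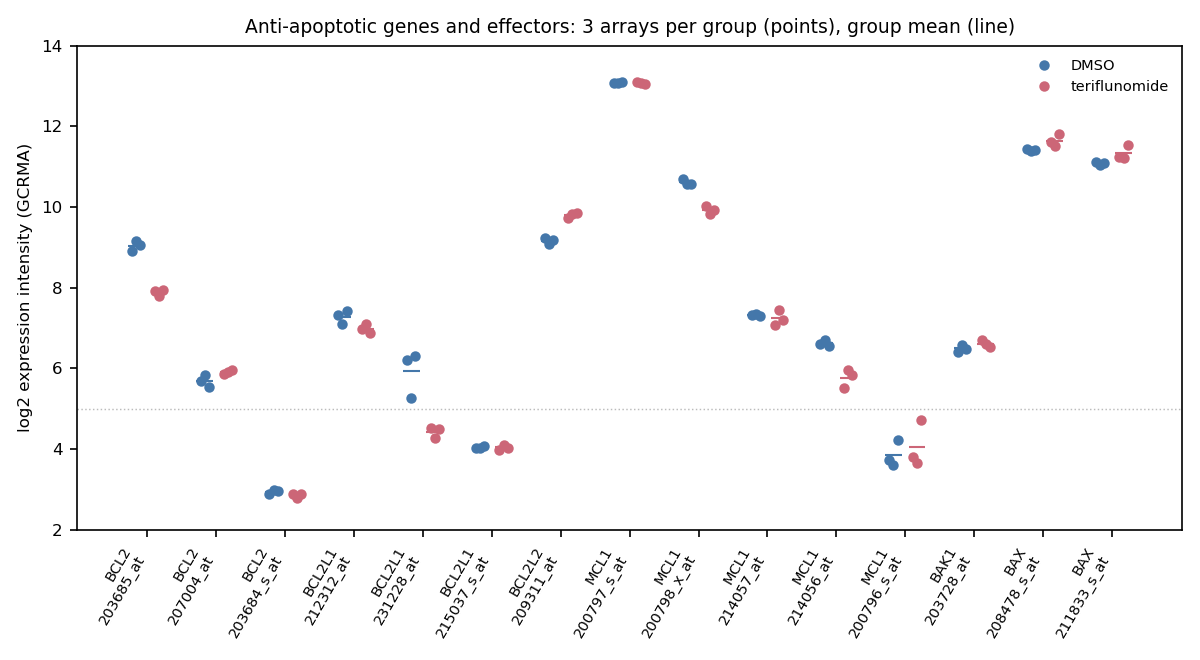
Log2 expression intensity (vertical axis) of the 15 tested probe sets of BCL2, BCL2L1, BCL2L2, MCL1, BAK1 and BAX, with 1 point per array, blue for DMSO and red for teriflunomide, and a line at each group mean of 3 arrays. The dotted line marks log2 5. BCL2 203685_at drops from about 9.04 to 7.89, while MCL1 200797_s_at stays near 13.08 in both groups.

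None of the 3 tested effector probe sets passed. BAX read 11.44, 11.38 and 11.42 in DMSO and 11.62, 11.51 and 11.80 with teriflunomide on 208478_s_at, and 11.12, 11.04 and 11.08 against 11.24, 11.21 and 11.53 on 211833_s_at. Every teriflunomide array was above every DMSO array on both, but the teriflunomide arrays were more spread. The changes of 0.23 (SE 0.08, limma adjusted p = 0.0609) and 0.24 (SE 0.10, limma adjusted p = 0.0834) did not pass. The first passed in 5 of 16 alternatives, among them without teriflunomide replicate 2 (0.29), and the second in 2, among them without teriflunomide replicate 3 (0.14). Their adjusted p-values ran from 0.0248 to 0.228 and from 0.0337 to 0.199. BAK1 read 6.41, 6.58 and 6.49 in DMSO and 6.69, 6.60 and 6.53 with teriflunomide. The groups overlapped, and the change was 0.11 (95% interval -0.05 to 0.28, limma adjusted p = 0.194).

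The 7 member probe sets below the brightness filter belonged to 6 of the genes and read between 2.18 and 2.64 on every array. The lowest value the arrays report was 2.18. Their differences ran from -0.002 to 0.12, and they say nothing on whether those transcripts changed. Of the 7 members with at least 2 tested probe sets, HRK and PMAIP1 were called one way on all, BCL2, BCL2L1 and MCL1 were called one way on some and did not pass on the rest, BCL2L11 was called both ways, and BAX was not called.

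The rest of the apoptosis pathway was counted in 6 lists with 1 probe set per gene, the brightest, by limma over 11998 genes. Of 54 tested genes 25 were higher and 14 lower, so 39 were called, where 29.7% of all genes tested were higher, 28.9% lower and 58.6% called in either direction. The median log2 fold change of the 54 was 0.18, against 0.00146 for all genes. Other BCL2 relatives had 5 of 11 higher and 0 lower, with a median of 0.29. BNIP3L, a mitophagy receptor, rose by 0.93 (SE 0.06), with its other probe set at 0.98, and BNIP1, a vesicle fusion protein with a BH3-like region, by 0.70 (SE 0.07). Among the 6 that did not pass were the BH3-only genes BID and BAD, at -0.13 and -0.11 on the brightest probe sets. The other tested probe sets stood between -0.81 and -0.51 for BID and between -0.31 and -0.25 for BAD. BCL2A1 and BCL2L10 read 2.18, the lowest value, on all 6 arrays.

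Proteins that bind or turn over BCL2 family members were called 4 higher and 4 lower of 14, with a median of 0.03. These counts stand beside 29.7% higher and 28.9% lower over all genes tested. DYNLL1, a dynein light chain that binds BIM, fell by 0.62 (SE 0.04). DYNLL2, a light chain that binds BMF, stood at 0.05 on its brightest probe set, which did not pass, and between -1.62 and -0.46 on its others. BAG1, a BCL2-binding co-chaperone, changed by -1.04 (SE 0.06), and its other 2 tested probe sets by -3.56 and -1.03. BAG3, another co-chaperone, rose by 0.61 (SE 0.07). MARCHF5, a mitochondrial ubiquitin ligase, rose by 0.34 on its brightest probe set, the other reading was -0.52, and the average of both, -0.09, did not pass.

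Downstream of the mitochondria, apoptosome and caspase genes were called 3 higher and 5 lower of 9, with a median of -0.13. Of all genes tested, 29.7% were higher and 28.9% lower. CASP9, the initiator caspase of the apoptosome, rose by 0.58 (SE 0.04) and CASP6 by 0.54 (SE 0.06), 0.39 and 0.30 as means of their probe sets. ENDOG, a mitochondrial nuclease, changed by -0.87 (SE 0.06) and CASP2 by -0.71 (SE 0.05). The inhibitors of apoptosis were called 2 higher and 3 lower of 5, with a median of -0.53. XIAP, which blocks caspases directly, rose by 0.43 (SE 0.05), with its other 6 tested probe sets at 0.08 to 0.50. BIRC2 rose by 0.30 (SE 0.04). NAIP changed by -1.50 (SE 0.19), or -0.59 with the floor at log2 5, and its other tested probe set by -0.85. BIRC6 changed by -0.56 (SE 0.07) and its other tested probe set by -0.42.

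Of 6 tested genes of the death receptor arm, 4 were higher and 1 lower (29.7% and 28.9% of all genes tested), with a median of 0.60. CFLAR, 1 of the 4, rose by 0.55 but read only 3.57 to 4.72. With values under log2 5 raised to 5 no change was left in it, and its other probe sets ran from -0.06 to 0.77. TNFRSF1A, a receptor for TNF, rose by 1.44 (SE 0.06) and TNFRSF10B, a receptor for TRAIL, by 1.23 (SE 0.06), with its other probe sets at 1.42 and 1.44. FADD, the adaptor of the receptors, fell by 0.36 (SE 0.04). CASP8, the initiator caspase of this arm, and CASP10 lay at or near the lowest value of the arrays. Among transcription factors known to act on BH3-only genes, 7 of 9 were higher and 1 lower, with a median of 1.10. Over all genes tested it was 29.7% higher and 28.9% lower, and this list was chosen with earlier results of these data known. DDIT3, which encodes CHOP, rose by 4.89 (SE 0.11) and ATF3 by 4.25 (SE 0.06). MYCN, amplified in this line, fell by 0.43 (SE 0.05) on its brightest probe set. Its other 2 tested probe sets stood at -0.46 and -0.03. Of the 68 genes of these lists, 8 lay below the filter and 6 were not analysed here.

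**Figure D4:**
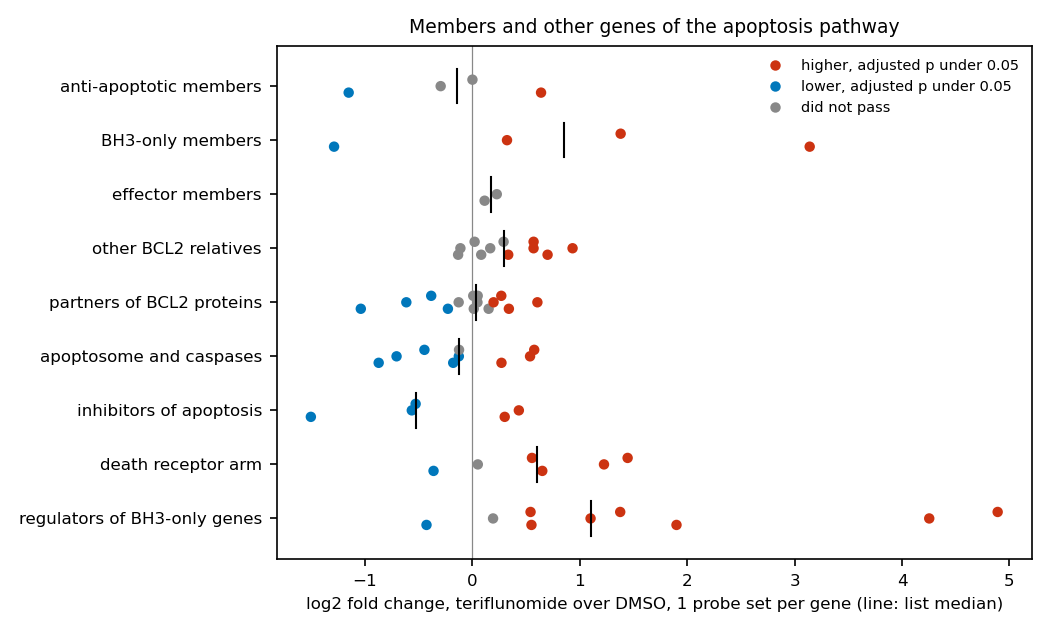
Log2 fold change, teriflunomide over DMSO (horizontal axis), of 1 probe set per gene, with 1 row per list, 1 point per gene coloured by its call and a black line at the list median. The regulators of BH3-only genes reach 4.89 (DDIT3), HRK is the rightmost BH3-only member at 3.14, and the inhibitors of apoptosis have a median of -0.53.

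Properties of the whole arrays bear on these values. The difference between the 3′ and 5′ control probe sets of ACTB, which reflects how complete the labelled transcripts are, averaged 1.36 ± 0.03 on the DMSO arrays and 1.62 ± 0.07 on the teriflunomide arrays (log2, SD over 3 arrays, two-sided exact permutation p = 0.1, the smallest that 3 against 3 allows). For GAPDH it averaged 0.05 and 0.06 (exact permutation p = 0.4). The part of this shift in the member readings, including the probe sets that differ within BCL2, MCL1 and BCL2L11, was not tested. Of 9 neuroblastoma markers 5 read above log2 7 on all arrays, GATA3 and MYCN among them. TH read 2.18 to 2.21, at or near the lowest value, and DBH averaged 3.41 in DMSO and 2.47 with teriflunomide. Of 8 neuroblastoma markers tested, 3 were higher and 2 lower, from -1.46 (CHGA) to 0.76 (PHOX2A) on the log2 scale, and their summed level was 15.8 in DMSO and 15.5 to 15.6 with teriflunomide (log2); its part in the results was not tested. Of 12 markers of blood, endothelial, epithelial and connective tissue cells, 9 read under log2 3 on all arrays, PTPRC, PECAM1 and EPCAM among them. COL1A1, COL3A1 and LUM read above 10, and the summed level of the 12 was 12.5 to 12.6 in DMSO and 13.2 to 13.3 with teriflunomide (log2); its part in the results was not tested.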

How the data were processed

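Total RNA of IMR32 cells was measured on 6 Affymetrix arrays. For each probe set the authors deposited a log2 intensity. The submitters' processing notes name GCRMA; the version was not given in the sources used here. GCRMA estimates background from probe sequence and equalises the distributions of arrays, so a change shared by every gene is not visible. Every array's lowest value was 2.18, and 38.0% to 38.3% of probe sets lay within 0.005 of it.

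By the platform annotation 41097 probe sets had 1 symbol, 1801 several and 11777 none, and 41043 were matched by gene identifier to a table of assembly GRCh38.p14. Control probe sets, 62 in number, were left out. A probe set was tested when it was at or above the array's median (log2 2.63 to 2.66) on at least 3 of 6 arrays. limma 3.58.1 (R 4.3.3) was fitted without covariates, with Benjamini-Hochberg adjustment over 22735 probe sets, or over 11998 genes with the brightest probe set each, and a threshold of 0.05. SE is limma's standard error and intervals are 95%. The fit was tested on simulated data. Python 3.11.15 was used for tables, exact permutation tests, motif searches and plots.

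The named genes are all members plus, per list of other pathway genes, the 2 called genes with the largest rise and the 2 with the largest fall; any other gene was chosen after its values were seen. The members and lists were chosen with earlier results of these data known. The alternatives were other filters, a floor at log2 5, other scalings, other variance models, the replicate block, leaving out each array, and other ways to take 1 value per gene. Leaving out probe sets that are constant over all arrays was added after seeing the data. The number of arrays limits the precision.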

Additional observations from a re-analysis of the deposited data

How the results depend on the processing

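Of the 16 member probe sets called, 12 kept their direction and their call under every alternative that could test them. The exceptions were both PMAIP1 probe sets and 1553096_s_at and 222343_at of BCL2L11. Of the 11 not called, 4 passed under some alternative, both of BAX, 207004_at of BCL2 and 212312_at of BCL2L1. With a filter at the 75th percentile, 7 member probe sets were called higher and 3 lower, of 11 tested, where 69.8% of all tested probe sets were called. Leaving out each array in turn gave 8 to 11 member probe sets called higher and 5 to 6 lower, with 45.6% to 48.6% of all probe sets called. The floor at log2 5 makes 222343_at of BCL2L11 constant, so it gives no value for its difference from 225606_at. As means of their probe sets, BCL2L11 stood at 0.10 and MARCHF5 at -0.088, opposite in sign to the brightest probe set and not called. MCL1 stood at -0.28, called, where the brightest gave 0.00. BCL2 was smaller at -0.34, still called, and BCL2L1 larger at -0.60, now called. Centring on poly-A spikes shifted all changes by -0.08 and ended the call of 222343_at (0.29). Same-numbered arrays deviated together with r of 0.09, 0.13 and -0.04 over probe sets, and differently numbered arrays with r of -0.16 to 0.09. With 3 arrays per group, each taken against its group mean, these values cannot decide whether the numbers pair the arrays. With the replicate block 11075 probe sets were called, 48.7% of those tested. Of the 27 member probe sets, 10 were then higher and 5 lower, and 222343_at (0.37) was the one that lost its call. Signal over background limits the called probe sets of BMF, 206865_at and 237187_at of HRK, 231228_at of BCL2L1 and 222343_at of BCL2L11, and the uncalled 203684_s_at of BCL2, 215037_s_at of BCL2L1 and 200796_s_at of MCL1, which had a group mean under log2 5. The mean as a gene's value was made of bright and dim probe sets alike. The cause of the differences between settings was not tested.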
